A study of Mus musculus with 6 samples.

Results

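The MYC, MAX and MXD network is a family of transcription factors that compete for the same DNA sequence, and its expression is described here in mouse peripheral T-cell lymphoma (PTCL). The members are 10 genes, Myc, Mycn, Mycl, Max, Mxd1, Mxd3, Mxd4, Mxi1, Mnt and Mlx. They were chosen by name, by a rule that holds no measured value but was written with earlier results of these data known, and each was found once among the 34245 genes measured.

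RNA was sequenced from 3 independent tumors, named here tumors 1, 2 and 3, each from a lymph node of a terminally sick FVB mouse. All were Dnmt3b+/-, that is, heterozygous for a conventional knockout allele of the DNA methyltransferase gene Dnmt3b that is present in every cell of the animal, and the labels name no MYC transgene and give no age. Bisulfite sequencing of Dnmt3b+/- and Dnmt3a-/- PTCL belongs to the same study and was not analysed here. With 1 RNA-seq group and no control group, the comparisons are between tumors of the same genotype or between genes within them, and are descriptions without a test. Values are FPKM, the fragments on a gene per kilobase of its exons and per 1000000 reads of the library, as deposited by the authors. The libraries of tumors 1, 2 and 3 held 30726570, 18969988 and 20770928 reads, and the reads behind each value were recovered from its FPKM. Intervals are 95% intervals of these reads and cover counting error only.

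MYC proteins bind DNA as partners of MAX, at E-boxes such as CACGTG, and activate genes of growth, ribosome production and metabolism. MXD proteins and MNT also need MAX (some can use MLX instead), bind the same sequence and repress, by recruiting SIN3 and histone deacetylases. Activated and proliferating T cells are known for high Myc, whereas MXD genes are better known from resting and differentiating cells.

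Myc was the most abundant member on average and was detected at a high level in all 3 tumors, between 30.4 and 55.2 FPKM. Of its antagonists, Mxd1 and Mxd4 had a larger ratio of highest to lowest tumor than Myc as deposited. With median-of-ratios factors Mnt and Mxd3 did too, with ratios of 1.90 and 1.56 against 1.55 for Myc. Mxd1 reached 33.9 FPKM in tumor 2, while tumors 1 and 3 had 3.93 and 2.59 FPKM, and in tumor 2 alone the summed FPKM of MXD and MNT genes was above that of the MYC family. Genes that MYC is known to activate had their lowest value in tumor 2 for 30 of 50 genes, beside 38.3% of all genes with a mean of at least 1 FPKM. In tumor 1 Myc was highest, and so were 11 of 12 genes of cycling cells, beside 50.6% of all such genes. Markers of other cells moved too, with the highest acinar and stromal sums in tumor 2 and the highest myeloid and red cell sums in tumor 1. B-cell markers had their highest sum in tumor 3 and their lowest in tumor 2. The part of all these markers in the results was not tested.

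The T-cell label was checked first. All 14 T-cell markers were above 0.2 FPKM, the level the study uses to call a gene expressed, in every tumor, beside 36.7% of all genes. Their summed FPKM was 1934, 1620 and 1948 in tumors 1, 2 and 3. Cd8b1 and Cd8a, the chains of the CD8 co-receptor, had the highest mean FPKM of the T-cell markers. Cd8b1 had 434.7, 166.0 and 443.4 FPKM in tumors 1, 2 and 3, and Cd8a had 258.5, 121.8 and 218.1 FPKM. Lck, the kinase bound to CD4 and CD8, had 159.6, 207.8 and 207.2 FPKM. Cd4 differed most among these markers, with 28.4, 4.28 and 8.22 FPKM. Of the 14 markers, 5, 6 and 3 were highest in tumors 1, 2 and 3, beside 50.6%, 33.7% and 15.7% of all genes with a mean of at least 1 FPKM. The lowest value fell in tumors 1, 2 and 3 for 6, 7 and 1 markers, beside 24.3%, 38.3% and 37.4% of these genes. These counts depended on the scaling, with 4, 5 and 5 highest and 7, 7 and 0 lowest with median-of-ratios factors, and 6, 6 and 2 highest and 3, 6 and 5 lowest after rescaling to a sum of 1000000. T-cell markers were thus present in all 3 tumors, with less Cd8a and Cd8b1 in tumor 2 and other markers highest there.

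Within the MYC family, nearly all of the RNA came from Myc (ENSMUSG00000022346, chr15:61985391-61990374 of mm10, plus strand). Tumors 1, 2 and 3 had 55.2, 37.9 and 30.4 FPKM of Myc, with a mean of 41.2 ± 12.7 FPKM (SD, n = 3). Tumor 1 was the highest and tumor 3 the lowest, and the ratio between them was 1.81 (95% interval 1.72 to 1.92, from 4609 and 1717 reads). This ratio was close to the median ratio of highest to lowest tumor over all genes with a mean of at least 1 FPKM, 1.68. Of the genes above 0.2 FPKM, 3.29%, 5.49% and 6.89% were more abundant than Myc in tumors 1, 2 and 3. Myc therefore stood among the more abundant genes of each tumor. Mycl, a MYC gene better known from lung cancer, had 0.693, 0.535 and 0.548 FPKM, from 86, 41 and 46 reads. The 95% interval of its ratio between tumors 1 and 2 ran from 0.883 to 1.93, so a difference between tumors was not detectable at this depth. Mycn, known from neuroblastoma, had 2 reads in tumor 2 and none in tumors 1 and 3. The limit that a count of 0 allows, 3 reads, was 0.0296, 0.0480 and 0.0438 FPKM in tumors 1, 2 and 3, and Mycn was under it in every tumor. Myc made up 98.7%, 98.5% and 98.2% of the summed FPKM of the 3 family members in tumors 1, 2 and 3.

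Max (ENSMUSG00000059436, chr12:76937269-76962201, minus strand), the partner shared by MYC, MXD and MNT proteins, varied least among the 8 members with a mean of at least 1 FPKM. Its level was 22.2, 27.5 and 25.9 FPKM in tumors 1, 2 and 3, with a mean of 25.2 ± 2.73 FPKM (SD, n = 3). Tumor 1, which had the most Myc, had the least Max, and the ratio of tumor 2 to tumor 1 was 1.24 (95% interval 1.17 to 1.32). Tumors 2 and 3 were not separated by counting error, with a ratio of 1.06 (95% interval 0.998 to 1.13). Which of tumors 1 and 3 had less Max depended on the scaling, since tumor 3 was the lowest with FPKM rescaled to sum to 1000000.

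Mlx (ENSMUSG00000017801, chr11:101087277-101092207, plus strand) encodes the MAX-like protein that pairs with the glucose-responsive factors MondoA and ChREBP. It had 16.7 FPKM in tumor 1, 12.4 FPKM in tumor 2 and 21.0 FPKM in tumor 3, with a mean of 16.7 ± 4.32 FPKM (SD, n = 3). It was the only 1 of the 8 members with its highest value in tumor 3, 1.70 times that of tumor 2 (95% interval 1.52 to 1.90). Exons of Mlx share 385 bases with Psmc3ip on the opposite strand, 19.3% of the exon length of Mlx, and whether reads were counted by strand is not stated. Psmc3ip was less abundant, with 4.21, 4.32 and 5.69 FPKM.

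Among the antagonists, Mxd1 (ENSMUSG00000001156, chr6:86647042-86669161, minus strand) differed most between tumors. Mxd1, also called Mad1, encodes a MAX partner that is induced when many cell types differentiate. It had 3.93 FPKM in tumor 1, 33.9 FPKM in tumor 2 and 2.59 FPKM in tumor 3, from 853, 4546 and 381 reads. Tumor 2 stood apart, at 8.63 times tumor 1 (95% interval 8.02 to 9.30) and 13.1 times tumor 3 (95% interval 11.8 to 14.5). The ratio of 13.1 was larger than that of 95.7% of all genes with a mean of at least 1 FPKM. The mean was 13.5 ± 17.7 FPKM (SD, n = 3), and without tumor 2 it was 3.26 FPKM.

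Mxd4 (ENSMUSG00000037235, chr5:34173883-34187720, minus strand), another MXD gene of differentiating cells, was also highest in tumor 2. Its level was 6.11, 14.8 and 11.5 FPKM in tumors 1, 2 and 3, with a mean of 10.8 ± 4.39 FPKM (SD, n = 3). Here tumor 1 was the one that stood low, and the ratio of tumor 2 to tumor 1 was 2.42 (95% interval 2.27 to 2.58). Mnt (ENSMUSG00000000282, chr11:74830920-74845725, plus strand), the broadly expressed MAX partner that opposes MYC in cycling and resting cells, had 6.52, 11.0 and 6.49 FPKM and a mean of 7.99 ± 2.58 FPKM (SD, n = 3). As deposited, tumors 1 and 3 did not differ beyond counting error, with a ratio of 1.00 (95% interval 0.906 to 1.11), but with median-of-ratios factors tumor 3 was 1.17 times tumor 1. Tumor 2 was 1.68 times tumor 1 (95% interval 1.54 to 1.84). Mxd3 (ENSMUSG00000021485, chr13:55325168-55329823, minus strand), the MXD gene known from cycling cells, had 4.84, 5.76 and 3.56 FPKM, with a mean of 4.72 ± 1.11 FPKM (SD, n = 3). Its order among tumors was again led by tumor 2, with a ratio to tumor 3 of 1.62 (95% interval 1.33 to 1.97). Mxi1 (ENSMUSG00000025025, chr19:53310506-53375810, plus strand), also called Mxd2, was the scarcest antagonist, with 1.88, 1.55 and 1.09 FPKM and a mean of 1.51 ± 0.399 FPKM (SD, n = 3). Unlike the other antagonists it was highest in tumor 1, 1.73 times tumor 3 (95% interval 1.44 to 2.10). The reads of Mxi1 did not come out as whole numbers to within 0.05 read, so its intervals are estimates. Mxd1, Mxd4, Mnt and Mxd3 thus shared tumor 2 as their highest tumor, and no scaling changed the highest tumor of any of the 8 members.

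**Figure D1:**
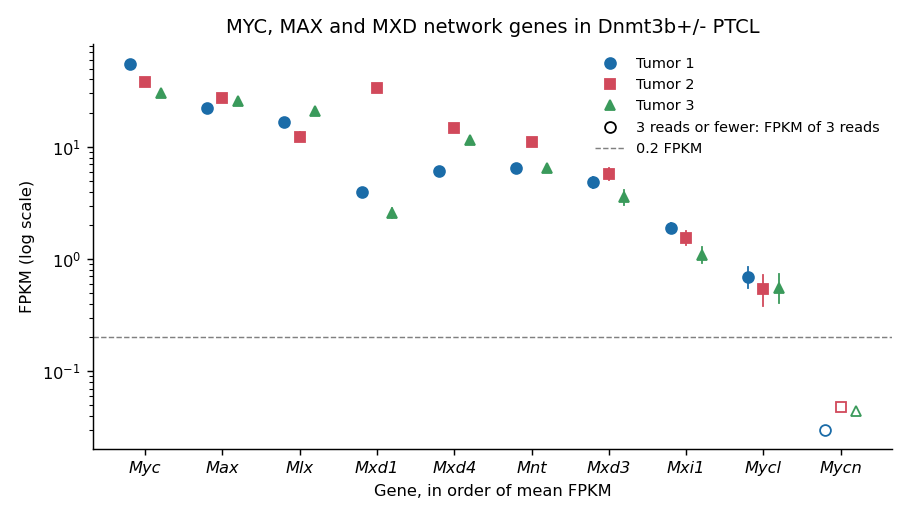
FPKM of the 10 network genes (log axis) in the 3 Dnmt3b+/- PTCL, 1 point per tumor, in order of mean FPKM, with lines for the 95% interval of the reads. Open symbols mark the FPKM of 3 reads where a gene had 3 reads or fewer (Mycn), and Mxd1 shows the widest spread, from 2.59 to 33.9 FPKM.

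Some exons of the antagonists are shared with genes on the opposite strand. Prelid1, at 55.3, 53.0 and 42.1 FPKM, shares 105 bases with Mxd3. At the level of Prelid1 these bases would hold 178, 106 and 91.8 reads in tumors 1, 2 and 3, beside the 352, 259 and 175 reads of Mxd3, and their part in the values of Mxd3 was not tested. Gm42846, at 11.6, 29.6 and 23.0 FPKM, lies wholly within exons of Mxd4, whose exon length it shares to 6.06%. At its level these bases would hold 183, 289 and 246 reads in tumors 1, 2 and 3. Mxd4 had 1593, 2383 and 2030 reads, and the part of the shared bases in its values was not tested. Gm10197 shares 2.84% of the exon length of Mxi1. Myc, Mycn, Mycl, Max, Mxd1 and Mnt share no exon with another gene.

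The network is known to act on itself through E-boxes, so the starts of the member genes were searched for CACGTG, which reads the same on both strands. RefSeq promoter windows of GRCm38.p6, from 250 bases before to 50 bases after each gene's start, were matched for 9 of the 10 members, all but Myc. CACGTG occurred in 4 of these 9 members, Max, Mxd4, Mnt and Mlx, beside 7.15% of all 32851 windows and 12.2% of the 8106 matched genes with a mean of at least 1 FPKM. The part of each window before the gene's RefSeq start and before any annotated exon (for Max, up to the end of the motif) is shown for these 4 members because they hold the motif, in capitals, and for Mxd1 because it differed most between tumors. The first base of CACGTG lies 219 bases before the RefSeq start in Mxd4, 123 in Mnt, 40 in Mlx and 3 in Max. The stretches are chr12:76962246-76962498 (Max, minus strand), chr5:34187721-34187960 (Mxd4, minus strand), chr11:74830674-74830919 (Mnt, plus strand), chr11:101087040-101087276 (Mlx, plus strand) and chr6:86669162-86669409 (Mxd1, minus strand), each written 5′ to 3′ on the gene's strand.
Max: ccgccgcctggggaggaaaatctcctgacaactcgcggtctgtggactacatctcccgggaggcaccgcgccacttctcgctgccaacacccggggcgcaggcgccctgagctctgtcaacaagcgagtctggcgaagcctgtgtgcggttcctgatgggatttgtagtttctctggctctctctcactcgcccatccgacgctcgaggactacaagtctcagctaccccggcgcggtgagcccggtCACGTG
Mxd4: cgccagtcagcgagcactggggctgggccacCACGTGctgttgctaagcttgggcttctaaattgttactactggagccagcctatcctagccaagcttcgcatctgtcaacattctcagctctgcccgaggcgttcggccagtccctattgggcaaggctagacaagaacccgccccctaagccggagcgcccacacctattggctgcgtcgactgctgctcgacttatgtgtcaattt
Mnt: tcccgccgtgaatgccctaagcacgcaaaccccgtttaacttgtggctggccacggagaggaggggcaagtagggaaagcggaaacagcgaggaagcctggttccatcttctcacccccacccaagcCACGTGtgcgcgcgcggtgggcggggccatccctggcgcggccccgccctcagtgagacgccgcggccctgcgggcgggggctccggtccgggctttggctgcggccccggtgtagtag
Mlx: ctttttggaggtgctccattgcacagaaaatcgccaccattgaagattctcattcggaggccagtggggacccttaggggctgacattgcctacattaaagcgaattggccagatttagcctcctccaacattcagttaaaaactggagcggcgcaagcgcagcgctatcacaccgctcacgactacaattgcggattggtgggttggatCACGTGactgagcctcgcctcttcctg
Mxd1: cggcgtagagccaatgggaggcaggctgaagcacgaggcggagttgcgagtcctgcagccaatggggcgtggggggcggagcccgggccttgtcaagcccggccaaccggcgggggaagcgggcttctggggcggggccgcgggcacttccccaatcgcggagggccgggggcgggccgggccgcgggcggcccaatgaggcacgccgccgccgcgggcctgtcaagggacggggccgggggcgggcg

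The 4 genes with the motif did not follow a single pattern across tumors, since Max, Mxd4 and Mnt were highest in tumor 2 and Mlx in tumor 3. Mxd1, with no CACGTG in its window, has a start rich in CpG, the dinucleotide that DNA methyltransferases modify. Its window holds 39 CpG, beside a median of 21 over windows of genes with a mean of at least 1 FPKM, and those of Mnt and Max hold 32 and 30. The 3 windows of Mxi1 hold 17, 21 and 49. The windows of Mxd4 and Mlx hold 18 each. These are features of the reference sequence, and methylation of these starts in the tumors was not measured here.

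A balance between activators and repressors was taken as the summed FPKM of Mxd1, Mxd3, Mxd4, Mxi1 and Mnt over the summed FPKM of Myc, Mycn and Mycl, a ratio within a library that does not depend on its scaling. In tumor 1 the sums were 23.3 FPKM for MXD and MNT and 55.9 FPKM for MYC, a ratio of 0.416. The sums of tumor 2 were 67.0 and 38.5 FPKM, a ratio of 1.74, and those of tumor 3 were 25.3 and 31.0 FPKM, a ratio of 0.815. By summed FPKM, antagonist RNA thus exceeded MYC family RNA in tumor 2 only, with 1 gene deciding it. FPKM divides reads by the length of all annotated exons, 2717 bases for Myc and 8483 for Mxd4. In tumor 3 Mxd4 had 2030 reads and Myc 1717. The ratio below 1 in tumor 3 therefore rests on these lengths, which were not varied. The share of Mxd1 in the antagonist sum was 16.9%, 50.6% and 10.3% in tumors 1, 2 and 3. Without Mxd1 the ratios were 0.346, 0.859 and 0.731, all below 1. The mean log2 ratio was -0.25 ± 1.03 (SD, n = 3), and its sign rested on tumor 1, without which it was 0.25. Without tumor 2 it was -0.78.

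The antagonist sum was made up differently in each tumor. In tumor 1 Mnt and Mxd4, with 28.0% and 26.3% of the sum, were not separated by counting error. Mxd1 led in tumor 2 with 50.6%, and Mxd4 in tumor 3 with 45.6%. By FPKM, Max RNA was less abundant than MYC family RNA in every tumor, with ratios of 0.397, 0.714 and 0.834 in tumors 1, 2 and 3. In tumor 3 this order rests on the exon lengths. Max had 1932 reads there over 3598 bases of exons, and Myc 1717 reads over 2717 bases. On the log2 scale the ratio of Max to the MYC family had a mean of -0.69 ± 0.57 (SD, n = 3). Genes that encode MAX partners of the MYC, MXD and MNT kinds together had 3.57, 3.83 and 2.18 times the FPKM of Max. RNA levels say nothing of the amounts of the proteins or of their pairs.

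**Figure D2:**
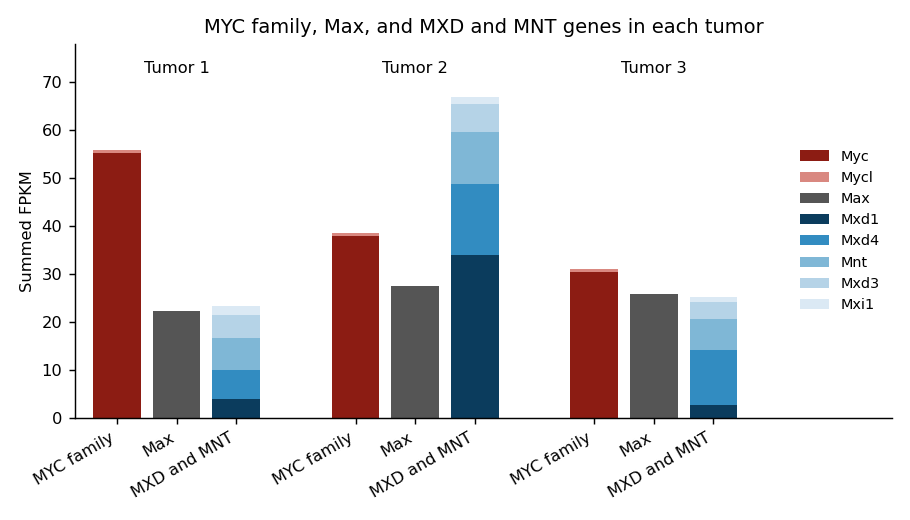
Summed FPKM (linear axis) of the MYC family, Max, and the MXD and MNT genes in each of the 3 Dnmt3b+/- PTCL, with each bar divided by gene. The MXD and MNT bar is taller than the MYC bar in tumor 2 (67.0 against 38.5 FPKM), where Mxd1 takes 50.6% of it.

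By mean FPKM the members ranked Myc, Max, Mlx, Mxd1, Mxd4, Mnt, Mxd3, Mxi1, Mycl and Mycn. Of the 9 pairs of neighbours in this order, 6 had ranges over the 3 tumors that did not overlap. The neighbours that did overlap were Mlx and Mxd1, Mxd1 and Mxd4, and Mxd4 and Mnt. The place of Mxd1 depended on tumor 2, since it came in place 7 without that tumor and in place 3 without either of the others.

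Counted over the network, 9 of 10 members were above 0.2 FPKM in every tumor, beside 36.7% of all genes, and 8 had a mean of at least 1 FPKM. Of these 8, Mxd1 and Mxd4 differed at least 2-fold between the highest and the lowest tumor, 2 of 8 beside 34.4% of all such genes. Without tumor 2 no member differed 2-fold, without tumor 1 only Mxd1 did, and without tumor 3 both did. The highest value fell in tumor 1 for 2 members (Myc and Mxi1), in tumor 2 for 5 (Max, Mxd1, Mxd3, Mxd4 and Mnt) and in tumor 3 for 1 (Mlx), beside 50.6%, 33.7% and 15.7% of all genes with a mean of at least 1 FPKM.

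The libraries also differed in the median over all genes, and whether this is a matter of scale was not tested. Over all genes with a mean of at least 1 FPKM, the median deviation of log2(FPKM + 1) from a gene's own mean over the tumors came to 0.11, -0.03 and -0.08 in tumors 1, 2 and 3. Relative to this shift, Myc deviated by 0.35, -0.04 and -0.30 in tumors 1, 2 and 3, and Mxd1 by -0.90, 2.07 and -1.17. With median-of-ratios factors, 36.9%, 36.9% and 26.2% of all genes were highest in tumors 1, 2 and 3, and with FPKM rescaled to sum to 1000000, 60.5%, 30.7% and 8.74%. The members kept their highest tumor under both, and at that rescaled sum Myc and Mxi1 also differed 2-fold, with ratios of 2.15 and 2.05.

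Tumors of a lymph node hold other cells as well, and in bulk RNA fewer cells of a type and less RNA per cell cannot be told apart. Marker lists of such cells are therefore given beside the high Mxd1 of tumor 2, with a gene without a read entered at its deposited value of 0.9 read. Of 8 pancreatic acinar genes, which encode digestive enzymes, all 8 were highest in tumor 2 and lowest in tumor 3, beside 33.7% and 37.4% of all genes with a mean of at least 1 FPKM. Their summed FPKM was 87.0, 440.3 and 0.657 in tumors 1, 2 and 3. Ctrb1, a chymotrypsinogen, was the most abundant at 33.9 and 197.7 FPKM in tumors 1 and 2, with no read in tumor 3, and Prss2 and Cela2a had 52.1 and 50.7 FPKM in tumor 2. Tumor 2 thus held RNA of acinar genes, and tumor 3 had at most 7 reads of each acinar gene named here. Of 8 stromal genes, 5 had a mean of at least 1 FPKM, and 3 of these were highest in tumor 2, beside 33.7% of all genes. The stromal sum was 23.5, 54.9 and 5.34 FPKM in tumors 1, 2 and 3, with Pecam1, an endothelial marker, at 12.2, 10.9 and 4.86 FPKM. The collagen genes Col1a1 and Col3a1 had 15.5 and 14.3 FPKM in tumor 2, against 1.63 and 1.86 FPKM in tumor 1, and Col3a1 had 1 read in tumor 3. Both sums were highest in the tumor with the most Mxd1, and their part in its level was not tested.

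Other marker lists did not have their highest sum in tumor 2. Of the 10 myeloid markers, 8 had a mean of at least 1 FPKM, and 7 of these were highest in tumor 1, beside 50.6% of all genes. The myeloid sum was 415.5, 134.6 and 40.6 FPKM, with the highest mean for the lysozyme gene Lyz2, at 215.2, 33.1 and 20.3 FPKM. The complement gene C1qa had 74.5, 24.1 and 1.44 FPKM and C1qb had 64.4, 20.6 and 1.59 FPKM, while S100a8, a granulocyte gene, had 13.2 FPKM in tumor 1, 3 reads in tumor 2 and 4.30 FPKM in tumor 3. The exception was the macrophage marker Cd68, named after its values were seen, which like Mxd1 was highest in tumor 2, at 19.6, 51.2 and 9.27 FPKM. The granulocyte precursor gene Elane had no read in any tumor, and Mpo had 1 read in tumor 1 and none elsewhere. The 5 red cell genes summed to 202.4, 38.4 and 4.74 FPKM, and all 5 were highest in tumor 1, beside 50.6% of all genes. Hba-a1 led them at 92.3, 19.6 and 1.90 FPKM, and Hbb-bs had 35.3, 6.93 and 1.25 FPKM. Hba-a2 had 40.7 and 8.22 FPKM in tumors 1 and 2 and 1 read in tumor 3. B-cell markers summed to 65.5, 51.3 and 124.7 FPKM, with 7 of 8 lowest in tumor 2, beside 38.3% of all genes. Cd79a, part of the B-cell receptor, had 23.1, 7.31 and 49.0 FPKM, Cd79b had 20.1, 3.72 and 35.5 FPKM, and Ms4a1 (CD20) had 3.98, 0.400 and 5.31 FPKM. The exception was Cd22, at 5.84, 36.5 and 13.9 FPKM. The part of the myeloid, red cell and B-cell RNA in the levels of the members was not tested.

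**Figure D3:**
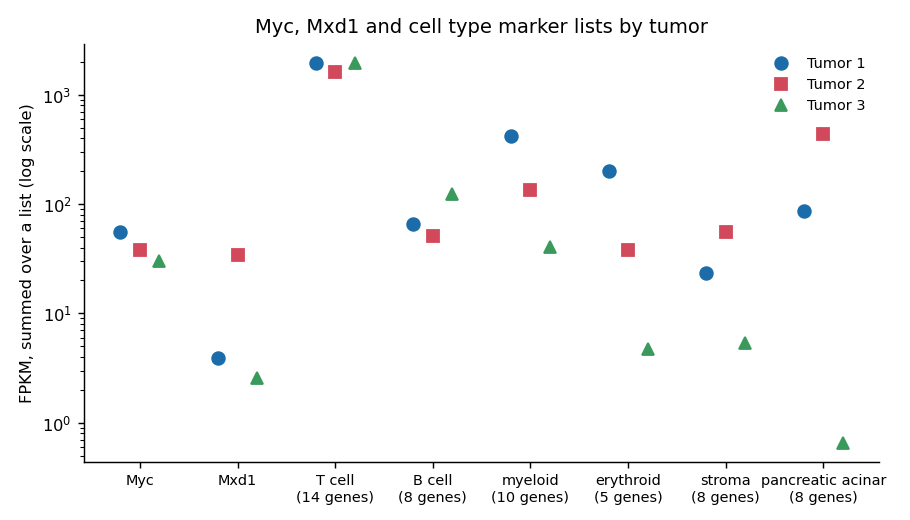
FPKM of Myc and Mxd1 and summed FPKM of 6 cell type marker lists (log axis), 1 point per tumor. Mxd1, the stromal sum and the acinar sum are highest in tumor 2, and Myc, the myeloid sum and the red cell sum are highest in tumor 1.

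Other genes of the pathway were described from lists, with each gene's deviation of log2(FPKM + 1) from its mean over the tumors and the list's median given relative to the median of all genes. Outside the members, the network holds Mga, whose protein pairs with MAX, and the MLX partners Mlxip (MondoA) and Mlxipl (ChREBP). Mga had 5.31, 4.60 and 4.88 FPKM and Mlxip had 11.1, 11.6 and 8.74 FPKM in tumors 1, 2 and 3. Mlxipl, known from liver and fat, had 2, 8 and 1 reads. The MLX partner expressed in these tumors was thus Mlxip, and its median with Mga relative to all genes was -0.02, 0.06 and -0.04.

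All 12 cofactors through which MYC activates were above 0.2 FPKM in every tumor, beside 36.7% of all genes, and none differed 2-fold, beside 34.4% of those with a mean of at least 1 FPKM. Their median relative to all genes was -0.02, 0.09 and -0.06 in tumors 1, 2 and 3, and the highest value fell in tumor 1 for 6 and in tumor 2 for 6, beside 50.6% and 33.7% of all genes (8 and 4 after rescaling to a sum of 1000000, 4 and 7 with median-of-ratios factors). Ruvbl1, an ATPase of chromatin complexes, had the highest mean and differed most, with 15.7, 24.9 and 19.7 FPKM. The acetyltransferase gene Kat2a had 17.6, 15.8 and 15.7 FPKM, and Ep400 had 12.3, 13.9 and 12.3 FPKM. The 11 repressive cofactors were also all above 0.2 FPKM in every tumor, beside the same 36.7%, and 2 differed 2-fold, with a median relative to all genes of -0.01, -0.06 and -0.01. The histone-binding gene Rbbp7 had 65.3, 78.5 and 86.8 FPKM and Rbbp4 had 19.1, 12.4 and 17.2 FPKM. Hdac1, a histone deacetylase of the SIN3 complex, had 26.5, 12.4 and 13.9 FPKM. Sap30, a SIN3 complex gene, differed most, with 3.95, 6.04 and 1.84 FPKM. As lists, both sets of cofactors stayed within 0.1 of all genes in each tumor.

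Genes that set the stability of the MYC protein were all 16 above 0.2 FPKM in every tumor, beside 36.7% of all genes, and 8 differed 2-fold, beside 34.4% of all genes with a mean of at least 1 FPKM. Pim2 and Pim1, kinase genes whose proteins are known to phosphorylate MYC, had the highest means. Pim2 had 41.6, 81.6 and 91.0 FPKM in tumors 1, 2 and 3, and Pim1 had 93.1, 37.4 and 73.3 FPKM. These Pim genes differed in opposite directions between tumors 1 and 2. Set, whose protein inhibits the phosphatase PP2A, had 61.7, 37.5 and 55.3 FPKM. Usp28, which encodes a deubiquitinase of MYC, differed most, with 7.50, 1.83 and 2.11 FPKM. The median of the list relative to all genes was 0.13, 0.08 and -0.02, and 10, 3 and 3 genes were highest in tumors 1, 2 and 3, beside 50.6%, 33.7% and 15.7% of all genes (11, 4 and 1 after rescaling to a sum of 1000000, 7, 5 and 4 with median-of-ratios factors).

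Of 51 genes that MYC is known to activate, 50 had a mean of at least 1 FPKM (all but Tert, the telomerase gene). The lowest value fell in tumor 1 for 6, in tumor 2 for 30 and in tumor 3 for 14 of these 50, beside 24.3%, 38.3% and 37.4% of all genes. Their median relative to all genes was 0.05, -0.18 and 0.09 in tumors 1, 2 and 3. The count of 30 lowest in tumor 2 was the same under both other scalings, and 28 genes were lowest there under all of them. The tumor with the highest values depended on the scaling, with 30, 9 and 11 genes highest in tumors 1, 2 and 3 as deposited, 36, 9 and 5 with FPKM rescaled to sum to 1000000, and 15, 11 and 24 with median-of-ratios factors. The lowest median of the list thus fell in tumor 2, while the least Myc was in tumor 3, where 14 of the 50 targets were lowest as deposited. The most abundant target was Npm1, a nucleolar chaperone of ribosome assembly, at 290.1, 176.3 and 336.7 FPKM. The nucleoside diphosphate kinase gene Nme2 had 204.7, 120.7 and 227.2 FPKM, and Eif5a, a translation factor gene, had 188.4, 131.6 and 146.2 FPKM. Tfrc, the transferrin receptor, differed most, with 31.9, 20.8 and 5.04 FPKM. Npm1, Nme2 and Eif5a were lowest in tumor 2, as most of the list was, and Tfrc in tumor 3.

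The targets were then split by function, a split made after their values were seen. For comparison, 38.3% of all genes with a mean of at least 1 FPKM were lowest and 33.7% highest in tumor 2. Of 23 genes of the nucleolus and ribosome biogenesis, 16 were lowest in tumor 2, with a median relative to all genes of 0.08, -0.20 and 0.14 in tumors 1, 2 and 3. All 4 translation factors were lowest in tumor 2, with a median of 0.23, -0.32 and 0.14. Of 10 enzymes of nucleotide, polyamine and one-carbon metabolism, 5 were lowest in tumor 2, with a median of 0.01, -0.18 and 0.05. Genes of glycolysis and glucose uptake had their highest median there. Of these 5 genes, 4 were highest in tumor 2 (5 with median-of-ratios factors), with a median of -0.15, 0.55 and -0.26. The enolase gene Eno1 had 30.2, 68.4 and 46.0 FPKM, the pyruvate kinase gene Pkm had 75.8, 121.4 and 65.6 FPKM, and the glucose transporter gene Slc2a1 had 10.6, 14.7 and 8.47 FPKM. Hk2, a hexokinase, had 1.75, 2.82 and 0.468 FPKM, whereas Ldha (lactate dehydrogenase) had 134.3, 131.6 and 104.1 FPKM. Chaperones, iron uptake and DNA repair had medians of 0.11, -0.13 and 0.09 over 5 genes, and cell cycle genes 0.01, -0.13 and 0.12 over 3. Tumor 2 thus had the lowest median in 5 of the 6 groups and the highest in glycolysis. It was also the tumor with the highest Mxd1, the highest acinar and stromal sums and the lowest B-cell sum. Their part in these medians was not tested.

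**Figure D4:**
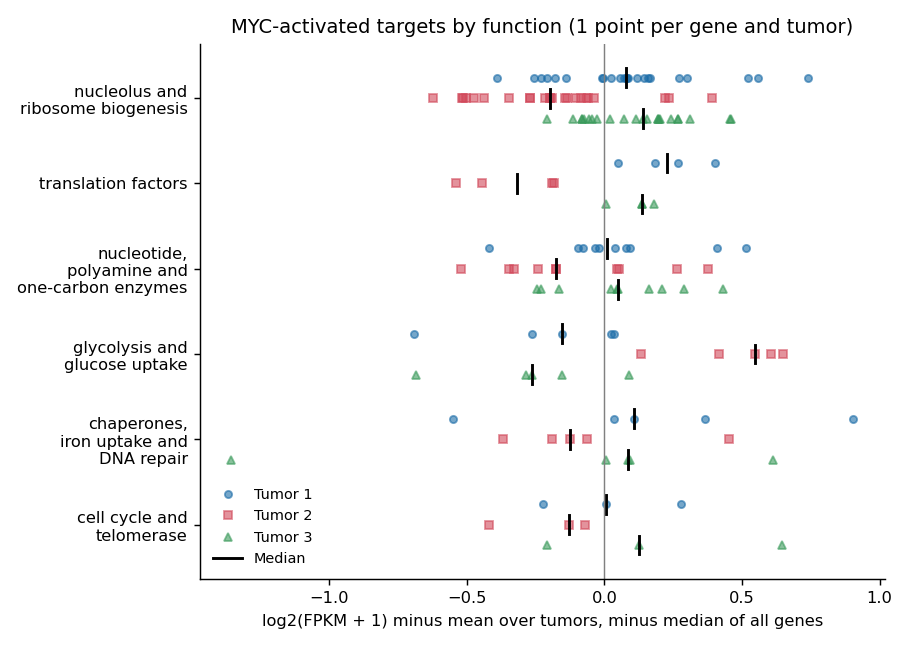
Deviation of log2(FPKM + 1) from the gene's mean over the 3 tumors, minus the median of all genes, for 50 MYC-activated targets by function, 1 point per gene and tumor, with black bars for medians. In tumor 2 the median is -0.20 for ribosome biogenesis and 0.55 for glycolysis and glucose uptake.

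CACGTG occurred in a promoter window of 13 of the 45 matched MYC-activated targets, 28.9%, beside the 12.2% of matched genes with a mean of at least 1 FPKM. It also occurred in 3 of 14 matched genes that set the stability of the MYC protein. Of 8 matched genes that MYC is known to repress 2 held it, and of the 3 other network genes 1 did. It occurred in 1 of 11 matched activating cofactors, 1 of 9 repressive cofactors and 1 of 11 genes of the list with Pvt1. Of the 11 matched genes of cycling cells, none held it.

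Of 10 genes that MYC is known to repress, 6 had a mean of at least 1 FPKM, of which 4, 1 and 1 were highest in tumors 1, 2 and 3, beside 50.6%, 33.7% and 15.7% of all genes. Their median relative to all genes was 0.18, -0.05 and -0.37. The cell cycle inhibitor gene Cdkn1b (p27) had 32.7, 19.0 and 27.2 FPKM in tumors 1, 2 and 3. Another inhibitor gene, Cdkn2c (p18), had 8.92, 7.79 and 5.75 FPKM. Klf6, a zinc finger factor gene, had 36.9, 17.4 and 13.5 FPKM. All 3 were highest in tumor 1, as were Myc and the myeloid and red cell sums, whose part in these values was not tested. Ndrg2 differed most, with 2.17, 2.10 and 0.335 FPKM. Cdkn1a (p21), named after its values were seen, was the gene highest in tumor 3, with 6.08, 3.04 and 11.3 FPKM, and Ndrg1, named in the same way, was highest in tumor 2, with 1.46, 6.64 and 1.10 FPKM.

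Next to Myc lies Pvt1, a long noncoding RNA gene whose start is 47.6 kb past the end of Myc on the same strand. Pvt1 had 2.00, 1.89 and 2.77 FPKM in tumors 1, 2 and 3, with a mean of 2.22 ± 0.476 FPKM (SD, n = 3). Its highest tumor was tumor 3, where Myc was lowest, and the ratio of Myc to Pvt1 was 27.5, 20.1 and 11.0. Pvt1 stands in a list of 13 genes with factors known to drive Myc in T cells, all above 0.2 FPKM in every tumor, beside 36.7% of all genes, with a median relative to all genes of 0.08, -0.15 and 0.12. Tcf7, a transcription factor gene of the Wnt pathway, had 175.2, 124.3 and 169.3 FPKM. Il2rb, a receptor chain for interleukins of T-cell growth, had 161.8, 525.5 and 434.7 FPKM. Il7r, the receptor chain for another such interleukin, differed most, with 30.7 FPKM in tumor 1, 0.641 FPKM in tumor 2 and 64.5 FPKM in tumor 3. Low Il7r and high Il2rb thus came with the high Mxd1 of tumor 2, while Il2rb was also high in tumor 3, where Mxd1 was lowest.

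Genes of cycling cells had the widest spread of the lists outside the cell type markers. Of 12 such genes, 11 were highest in tumor 1 and 11 lowest in tumor 3, beside 50.6% and 37.4% of all genes, with a median relative to all genes of 0.49, -0.15 and -0.50. The replication clamp gene Pcna had 88.0, 55.9 and 63.6 FPKM in tumors 1, 2 and 3. Mcm3, a replicative helicase gene, had 36.2, 23.4 and 23.1 FPKM. The proliferation marker Mki67 had 38.7, 30.4 and 12.0 FPKM, and Birc5, which acts in cell division, had 21.5, 5.67 and 4.005 FPKM. Myc and this list were thus both highest in tumor 1 and lowest in tumor 3, and so were the myeloid and red cell sums, whose part was not tested.

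**Figure D5:**
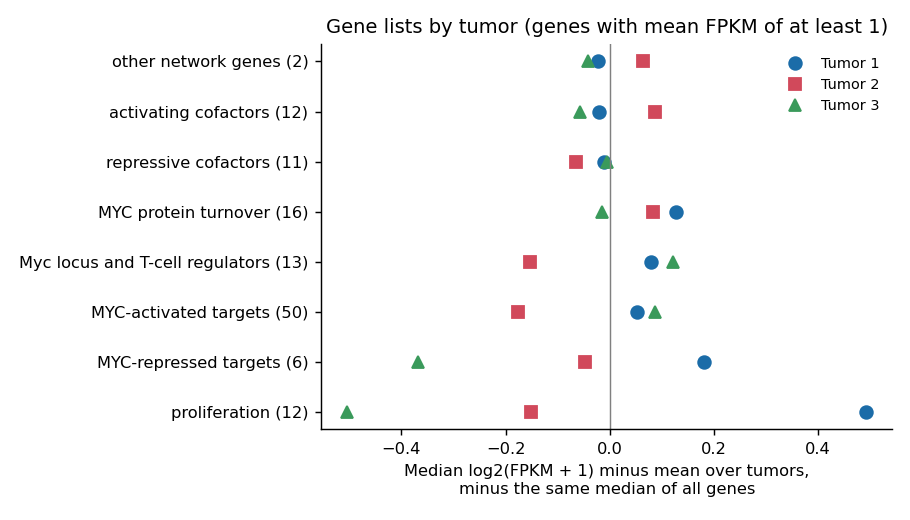
Median deviation of log2(FPKM + 1) from the genes' means over the tumors, minus the median of all genes, for 8 gene lists, 1 point per tumor, with the number of genes in parentheses. Proliferation genes spread most, from -0.50 in tumor 3 to 0.49 in tumor 1, and MYC-activated targets are lowest in tumor 2, at -0.18.

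The genes whose pattern over the 3 tumors was most like that of Myc were found by the distance between deviations of log2(FPKM + 1), which for Myc were 0.46, -0.07 and -0.38. Cpq, Mir17hg and Trim24 were the closest of 11196 other genes with a mean of at least 1 FPKM, at distances of 0.0139, 0.0168 and 0.0185. Cpq had 3.67, 2.22 and 1.58 FPKM, Mir17hg had 5.12, 3.31 and 2.45 FPKM, and Trim24 had 3.54, 2.09 and 1.51 FPKM. With 3 tumors the same order is common, since 20.5% of the genes had the order of tumors of Myc. Within a distance of 0.1 lay 105 genes (0.938%).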

How the data were processed

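RNA-seq (paired-end, 150 bp) of 3 Dnmt3b+/- PTCL was used. The values are FPKM as deposited by the authors, linear and separate for each tumor. The authors used STAR for alignment of trimmed reads (mm10) and SeqMonk's RNA-seq pipeline for counting (mapping quality of 50 or more), without stated versions. The labels and the paper name different sequencers for the RNA-seq. Where no read fell on a gene, its value is that of 0.9 read, and this gave each library's depth. Reads were recovered with exon lengths of the annotation, and 93.4%, 93.4% and 93.6% of values in tumors 1, 2 and 3 came within 0.05 of a whole read. The floor for a count of 0 is 3 reads. Intervals of ratios are exact binomial (Clopper-Pearson). No model was fitted and no test was made. The labels hold 1 RNA-seq group, so none was possible between groups, and the ratios within tumors are given as descriptions.

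The members and the 14 gene lists were chosen with earlier results of these data known. Named genes are the 10 members, 3 other network genes, Pvt1, the 3 genes of each list with the highest mean FPKM and the 1 with the largest ratio of highest to lowest tumor (mean of at least 1 FPKM), and the 3 genes closest to Myc. Other names were chosen after their values were seen, as were the functional groups of targets, the counts of genes lowest in a tumor, and the markers named as having few reads or none. List medians used log2(FPKM + 1) and genes with a mean of at least 1 FPKM.

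The alternatives tried were a rescaling to a sum of 1000000, median-of-ratios factors, other thresholds, pseudocounts and filters, list means, single genes left out of the ratio, and leaving out 1 tumor at a time. The estimate of depth, the 2-fold call, the highest tumor, the median deviation over all genes and the search for the closest genes were tested on simulated data. The other steps were not. The work was done in Python 3.11 with SciPy 1.17.1, NumPy 2.4.6, pandas 2.3.3 and, for plots, matplotlib 3.10.9.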

Additional observations from a re-analysis of the deposited data

How the results depend on the processing

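The count of members above 0.2 FPKM in every tumor was 9, also with each rescaling, with the limit of 3 reads and without any 1 tumor, and 8 above 1 FPKM. The count with a 2-fold difference between tumors, 2 as deposited, was 4 with FPKM rescaled to sum to 1000000, 7 at a ratio of at least 1.5, 1 at a ratio of at least 3, and between 0 and 2 with 1 tumor left out. The mean log2 ratio of MXD and MNT to the MYC family ran from -0.78 to 0.25 with 1 tumor left out, and turned positive without tumor 1. In tumor 2 this ratio was -0.22 with Mxd1 left out, so that 1 gene set its sign. The mean log2 ratio of Max to the MYC family stayed negative under every alternative tried, between -0.91 and -0.37. No alternative changed the exon lengths behind either ratio. Of the 42 list medians of log2(FPKM + 1) deviations (14 lists in 3 tumors), before the median of all genes was taken off, 8 moved by more than the spread between tumors when rescaled to a sum of 1000000. In tumors 1 and 3 they became 0.22 and -0.25 for the other network genes, 0.22 and -0.26 for activating cofactors, 0.26 and -0.21 for repressive cofactors, and 0.038 and -0.12 for T-cell markers. With median-of-ratios factors 4 moved, to -0.030 for the other network genes and -0.036 for activating cofactors in tumor 1, and to -0.22 and 0.090 for T-cell markers in tumors 1 and 3. The mean in place of the median gave 0.17 and -0.20 for T-cell markers in tumors 1 and 2, and a pseudocount of 0.1 gave -3.25 for stromal markers in tumor 3. The cause of these moves was not tested.

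Depth limits Mycl and Mycn, and 3 tumors without a control group allow no test between groups. No paired analysis of groups was possible because the samples form a single RNA-seq group of independent tumors, and the ratios within tumors were not tested.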
